A study of Mus musculus with 8 samples.

Results

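The genes described here are 10 mouse genes of glucose uptake and glycolysis: the glucose transporter genes Slc2a1 and Slc2a3, the hexokinase genes Hk1 and Hk2, the phosphofructokinase genes Pfkp and Pfkl, the pyruvate kinase gene Pkm, the lactate dehydrogenase gene Ldha, the pyruvate dehydrogenase kinase gene Pdk1 and the hypoxia-inducible factor gene Hif1a. Open chromatin around them was read from a table of 134407 peaks, each 201 bp wide. A peak was counted with a gene when its centre lay inside the gene's GRCm38 span or within 50 kb of it. This gave 201 peaks, of which 77 lay inside a member gene, 46 lay outside with the member as the nearest protein-coding gene, and 78 were nearer to, or inside, another gene.

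ATAC-seq, which cuts accessible DNA with the Tn5 transposase and sequences the fragments, was done on wild-type E14 cells, a mouse embryonic stem cell line, grown on gelatin in serum with LIF. The control group was 4 libraries of cells without the drug, and the paused group was 4 libraries of cells kept for 24 h in 200 nM INK128, which inhibits the kinase mTOR. Each library came from 50000 live cells. All 8 libraries are of 1 cell line, and the labels do not say whether the replicates were separate cultures, so p-values measure the spread between these libraries, which may be technical.

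Glucose enters cells through facilitative transporters, is trapped by hexokinase, is committed to glycolysis by phosphofructokinase, and leaves the pathway as pyruvate made by pyruvate kinase. Lactate dehydrogenase turns pyruvate into lactate, and pyruvate dehydrogenase kinase holds pyruvate back from mitochondrial oxidation. Hif1a encodes the oxygen-regulated subunit of the factor that switches many of these genes on in low oxygen, and mTOR signalling is a known upstream regulator of that factor and of glycolysis. Accessibility reports on regulatory DNA and not on transcript, protein or flux, none of which was measured here.

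The deposited value of a peak was its read count divided by 1 factor per library, so a value is comparable between peaks of the same width. Reads in peaks ranged from 4434037 to 21161767 per library, and 3 reads corresponded to values of 1.04 to 5.08. Changes are given as the paused minus the control mean of log2(value + 1), which understates changes of weak peaks. A peak was called when limma-trend, fitted over the 127402 peaks whose values averaged 10 or more, gave a Benjamini-Hochberg adjusted p below 0.05. Tested peaks as a whole had a median of 0.10, against which each change is to be read. Of 7 embryonic stem cell marker genes, 5 had a peak within 1 kb of their start, with control means of 114 to 230, and Pou5f1 and Klf4 had none. Among 4 fibroblast genes, Col1a2 (68.9) and Twist2 (34.4) had a start-site peak in control cells, and Col1a1 (27.0) and Thy1 (147) a peak at a gene end only. Of 4 primitive endoderm genes, Dab2 had a start-site peak (150), and Gata6 (85.1) and Sox17 (115) a gene-end peak. Of 4 trophoblast genes only Elf5 had one (22.8). Called among these marker peaks were Dab2 (150 ± 26.4 in control and 215 ± 33.8 in paused cells, change 0.52, adjusted p = 0.00498, limma-trend) and the stem cell gene Zfp42 (207 ± 22.3 and 273 ± 12.9, change 0.40, adjusted p = 0.0117, limma-trend), both higher. The part of other cell types in the results was not tested.

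Accessibility differed between paused and control cells at a minority of the peaks around these genes, in both directions. Of 191 member peaks that passed the filter on low values, 24 were called higher in paused cells, which is 12.6%, against 11.0% of all tested peaks. Another 10 were called lower, which is 5.24%, against 2.91% of all tested peaks. The shares were thus close to the background for higher calls. The median change of the tested member peaks was 0.08. The remaining 10 member peaks had means of 6.20 to 9.89 and were not tested. In the authors' deposited table, 19 member peaks had a positive fold and 8 a negative fold at an FDR below 0.05. All 27 were called in the same direction here, which is not independent evidence because both use the same libraries.

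The balance of the calls depended on the scaling between libraries. Higher calls made up 70.6% of the member calls on the deposited scale. With trimmed mean (TMM) scaling they made up 46.4%, 13 higher and 15 lower peaks, both in edgeR, where 7.13% of all tested peaks were called higher and 5.54% lower, and in limma-trend, where these shares were 5.79% and 4.30%. After a loess correction for peak strength they made up 41.7%, 10 higher and 14 lower, with 5.10% and 3.50% of all tested peaks. DESeq2 called 7 higher and 6 lower member peaks, against 3.06% and 1.49% of all. Calls that held under every alternative in which the peak was tested, each left-out library included, numbered 6 higher and 4 lower, and these peaks are identified with their genes.

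**Figure D1:**
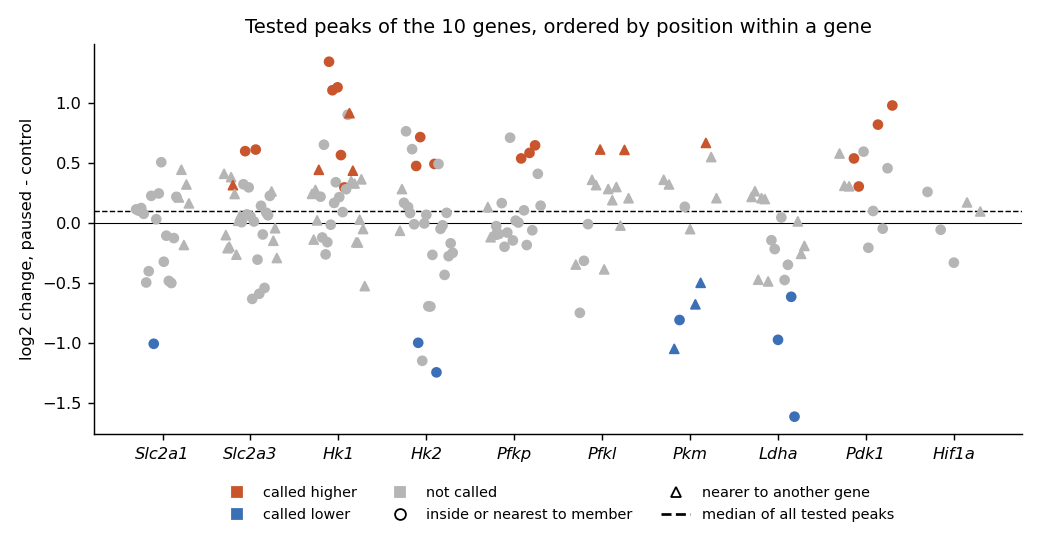
Change in accessibility of the 191 tested peaks around the 10 genes, as paused minus control log2(value + 1), in genomic order within each gene. Colour marks calls at an adjusted p below 0.05, triangles mark peaks nearer to another gene, and the dashed line is the median of all tested peaks (0.10). Calls around Slc2a3, Hk1, Pfkp, Pfkl and Pdk1 are all higher, calls around Slc2a1 and Ldha are all lower, Hk2 and Pkm have both, and Hif1a has none.

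Start sites came first, because the peak nearest to a start site is the most direct reading of a promoter. A peak lay within 1 kb of the annotated start of 8 genes, and within 1 kb of a gene end of Slc2a3, for which no strand was used; in the counts over all genes, genes without a promoter entry were likewise read at either gene end. Pfkl had no such peak, the nearest lying 7768 bp from its start. By the mean over all 8 libraries the order was Hk1 (398), Pdk1 (379), Pkm (366), Hk2 (344), Hif1a (274), Pfkp (269), Slc2a1 (231), Ldha (183) and the gene-end peak of Slc2a3 (88.4), which was not placed at a start. The ranges over the 8 libraries overlapped between every pair of neighbours in that order except Ldha and Slc2a3, whose highest value was 111 against a lowest of 161 for Ldha.

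Only the Hk1 and Pdk1 start-site peaks were called, both higher, which is 2 of the 9 with the Slc2a3 gene-end peak counted. Among all start-site peaks 11.1% were called higher and 0.676% lower, and their median change was 0.18. Both calls were lost under TMM and loess scaling, where 2.58% and 1.16% of all start-site peaks were called higher with limma-trend.

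**Figure D2:**
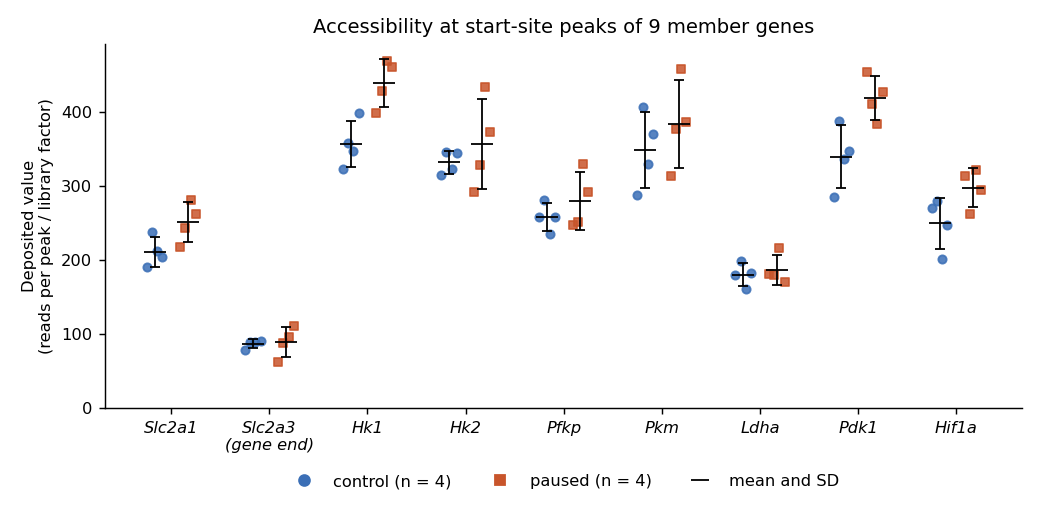
Deposited value (reads per peak divided by the library's factor) of the start-site peak of 9 genes in each of 4 control (blue circles) and 4 paused (orange squares) libraries, with group mean and SD. The groups overlap at every one of the 9 genes, and the paused mean exceeds the control mean at each on the deposited scale; under TMM scaling the change turns negative at Slc2a3, Hk2, Pfkp and Ldha.

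Promoter sequences are shown for 4 genes: Hk1 and Pdk1, where calls were higher, Ldha, where calls were lower, and Hk2, which had calls both ways. These patterns are not particular to them. Slc2a3, Pfkp and Pfkl also had higher calls only, Slc2a1 a lower call only, and Pkm calls both ways. The start-site peaks of Ldha and Hk2 were not called. They run 5′ to 3′ on the gene's strand, from 250 bases before to 50 bases after the start, and come from RefSeq on GRCm38.p6. Capitals mark ACGTG or its reverse complement CACGT, a form of the core that hypoxia-inducible factors bind, called the core below. Other forms, such as GCGTG, were not searched. Where a match reads CACGTG it is also an E-box, the site of the Myc family.
Hk1, chr10:62340372-62340671, minus strand: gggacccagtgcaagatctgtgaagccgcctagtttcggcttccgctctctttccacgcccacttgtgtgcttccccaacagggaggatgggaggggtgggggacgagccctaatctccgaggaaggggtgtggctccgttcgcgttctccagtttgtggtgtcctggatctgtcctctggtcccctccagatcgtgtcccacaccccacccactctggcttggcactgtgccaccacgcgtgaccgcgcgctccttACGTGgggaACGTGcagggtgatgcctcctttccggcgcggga
Pdk1, chr2:71872974-71873273, plus strand: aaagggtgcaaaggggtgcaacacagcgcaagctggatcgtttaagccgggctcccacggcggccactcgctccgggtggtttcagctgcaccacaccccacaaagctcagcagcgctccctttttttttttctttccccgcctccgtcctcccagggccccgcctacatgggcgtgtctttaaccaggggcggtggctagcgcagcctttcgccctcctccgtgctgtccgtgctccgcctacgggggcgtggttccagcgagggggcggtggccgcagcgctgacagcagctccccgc
Ldha, chr7:46845554-46845853, plus strand: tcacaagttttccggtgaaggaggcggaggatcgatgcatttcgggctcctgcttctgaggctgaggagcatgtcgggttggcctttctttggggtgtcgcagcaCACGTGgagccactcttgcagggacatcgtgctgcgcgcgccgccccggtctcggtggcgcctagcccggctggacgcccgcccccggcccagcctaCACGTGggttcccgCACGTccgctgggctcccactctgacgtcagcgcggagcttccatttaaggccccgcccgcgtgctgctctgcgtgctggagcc
Hk2, chr6:82774405-82774704, minus strand: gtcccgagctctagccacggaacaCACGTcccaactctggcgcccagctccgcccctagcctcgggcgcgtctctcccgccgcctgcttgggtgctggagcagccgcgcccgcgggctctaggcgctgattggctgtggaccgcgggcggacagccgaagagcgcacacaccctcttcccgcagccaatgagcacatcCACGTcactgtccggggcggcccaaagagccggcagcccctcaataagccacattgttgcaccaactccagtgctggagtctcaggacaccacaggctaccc

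The core occurred 3 times in the Ldha sequence, 145, 48 and 34 bases upstream of the start, and the first and second of these were E-boxes. Hk2 had 2 cores, 226 and 52 bases upstream, and Hk1 had 2, 7 and 16 bases downstream of the start. The Pdk1 sequence held none of this form, and GCGTG, which does occur in it, was not counted in any promoter. GC boxes (GGGCGG, a site of Sp-family factors), searched on both strands like the other motifs, numbered 2 in the Pdk1 sequence, 3 in that of Ldha, 3 in that of Hk2 and 0 in that of Hk1. Of the 10 genes, 9 had an entry, with 13 promoters between them. The core was in 6 of the 13 promoters and in 19.6% of all 32851 promoters, the E-box in 2 against 7.15%, and the GC box in 7 against 35.7%. An E-box always contains the core, so the counts are not separate. The start-site peak overlapped the shown window by 157 bp at Pdk1, 201 bp at Hk2 and 61 bp at Ldha, and lay just outside it at Hk1. A match is a string of letters and not an occupied site, since no factor's binding was measured.

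The transporter gene Slc2a1 encodes GLUT1, the widely expressed glucose carrier (GRCm38, chr4:119108745-119137330). Its start-site peak, 158 bp downstream of the start, measured 190, 238, 212 and 204 in control cells and 218, 243, 281 and 262 in paused cells. The paused libraries tended to be higher but the groups overlapped, and the change of 0.25 (95% interval 0.02 to 0.48, adjusted p = 0.135, limma-trend) did not pass the test. The strongest peak of the window, 36830 bp upstream, measured 363 ± 25.5 in control and 396 ± 18.5 in paused cells (SD, n = 4) and was not called (adjusted p = 0.421, limma-trend).

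A weaker peak 6292 bp upstream of Slc2a1, chr4:119102353-119102553, was the only call of its 22 tested peaks. The control libraries gave 33.9, 29.9, 42.3 and 30.9 there, and the paused libraries 10.4, 12.6, 23.3 and 23.4. All paused values lay below all control values. The change of -1.004 ± 0.26 (SE) had an adjusted p of 0.00655 by limma-trend and was called under every alternative. Over the whole window the summed value was 2206 ± 54.1 in control and 2278 ± 98.2 in paused cells, a change of 0.05 (adjusted p = 0.362, limma-trend) that turned to -0.10 after TMM scaling.

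Slc2a3 encodes GLUT3, a high-affinity glucose carrier (chr6:122727809-122802363). Its peak 275 bp outside the lower-coordinate gene end read 78.5, 89.6, 89.7 and 91.1 in control and 62.3, 88.3, 96.2 and 111 in paused libraries. The paused values fell on both sides of the control values, and the change was 0.01 (95% interval -0.29 to 0.31, adjusted p = 0.977, limma-trend). It was negative under TMM and loess scaling.

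Inside the annotated span of Slc2a3, at chr6:122770491-122770691, accessibility was higher in paused cells under every alternative. Control libraries measured 120, 100, 124 and 140, and paused libraries 176, 177, 216 and 171. The groups did not overlap. Means were 121 ± 16.1 and 185 ± 20.6 (SD, n = 4), a change of 0.61 ± 0.13 (SE; adjusted p = 0.000773, limma-trend).

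Another Slc2a3 peak, at chr6:122732208-122732408, was called higher with overlapping groups (28.2 ± 8.90 against 42.1 ± 4.22, adjusted p = 0.0471, limma-trend). The call was lost after TMM scaling and when 7 of the 8 libraries were left out one at a time. The third higher call in the window, held in 4 of the 8 fits that left out 1 library, chr6:122702542-122702742, lay 4847 bp from Nanog, a pluripotency factor gene, and 25167 bp from Slc2a3. Its values were 355, 405, 450 and 410 in control and 554, 429, 492 and 548 in paused cells, with an adjusted p of 0.0348 by limma-trend that rose to 0.187 after TMM. The strongest peak, 8627 bp outside the gene, gave 443 ± 63.9 and 517 ± 54.0 and was not called (adjusted p = 0.148, limma-trend). None of the 31 tested peaks was called lower.

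The hexokinase gene Hk1 encodes the broadly expressed mitochondrion-bound hexokinase (chr10:62268855-62379920, minus strand). It had the most tested peaks and the most calls of the 10 genes: 8 higher and none lower of 32 tested peaks. Of the 8 calls, 5 lay inside the gene. Among all tested peaks, 11.0% were called higher and 2.91% lower. The median change in its window was 0.26, against 0.10 for all tested peaks.

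The start-site peak of Hk1, 186 bp downstream of the start whose promoter is shown above, was its strongest. Controls gave 323, 358, 347 and 398, and paused libraries 398, 427, 469 and 460. The lowest paused value lay just below the highest control value. The change of 0.30 ± 0.10 (SE) had an adjusted p of 0.0425 by limma-trend. The call held in 2 of the 8 fits that left out 1 library, and after TMM scaling the change was 0.19 (adjusted p = 0.208, limma-trend). Around the upstream start of Hk1 the nearest peak was 12677 bp away.

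Larger changes lay inside Hk1, 26135 bp downstream of the start, at chr10:62314186-62314386. This peak had the smallest adjusted p of all member peaks. Control libraries read 40.5, 38.2, 42.3 and 45.5, and paused libraries 72.7, 97.8, 80.7 and 127. Every paused value was above every control value. The mean went from 41.6 ± 3.10 to 94.4 ± 23.8, 2.27 times the control mean, a change of 1.13 ± 0.16 (SE; adjusted p = 1.01e-05, limma-trend) that remained 1.02 after TMM and 0.97 after loess.

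Further inside Hk1, the peak at chr10:62287572-62287772 was weak but also called under every alternative. Its values were 14.9, 5.97, 15.2 and 13.2 in control and 24.2, 48.9, 21.7 and 36.3 in paused cells. The groups were separate, on as few as 5 reads in a library. The change was 1.35 (adjusted p = 0.00165, limma-trend), the largest rise among tested member peaks. At chr10:62296227-62296427 the mean was 11.2 ± 1.16 in control and 25.8 ± 6.64 in paused cells, again without overlap (change 1.11, adjusted p = 0.00568, limma-trend; 0.0579 with DESeq2).

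The fifth call inside Hk1, at chr10:62328995-62329195, was higher with overlapping groups (44.3 ± 11.0 and 65.9 ± 13.0, adjusted p = 0.0289, limma-trend) and was lost after TMM and in 6 of the 8 fits that left out 1 library. The other 3 calls in the window belonged by position to neighbours. One lay inside Tacr2, a tachykinin receptor gene, where the mean went from 124 ± 8.82 to 169 ± 12.4 (adjusted p = 0.00985, limma-trend). A pair lay inside Hkdc1, a hexokinase-domain gene beside Hk1. There, means went from 24.6 ± 8.64 to 46.1 ± 12.8 and from 75.4 ± 11.9 to 102 ± 5.12 (adjusted p = 0.00936 and 0.0316, limma-trend). The Tacr2 call was lost after TMM (adjusted p = 0.0549, limma-trend) and loess (0.187), and so was the stronger Hkdc1 peak (0.123 and 0.272), which held in 4 of the 8 fits that left out 1 library. The weaker Hkdc1 peak kept its call after both scalings and lost it without the third control (adjusted p = 0.0635, limma-trend) or the fourth paused library (0.0575). With DESeq2 the Tacr2 peak, the stronger and the weaker Hkdc1 peak all lost their calls (adjusted p = 0.173, 0.305 and 0.1).

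The summed value of the Hk1 window was 1761, 1720, 1722 and 1824 in control and 2067, 2145, 2140 and 2186 in paused libraries. The groups were clearly apart. The mean sum was 21.5% higher in paused cells (1757 ± 48.5 and 2135 ± 49.5, change 0.28, adjusted p = 4.64e-05, limma-trend), against a median of 0.15 over all gene sums. After TMM scaling it was 0.13 (95% interval 0.06 to 0.21, adjusted p = 0.0212, limma-trend).

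Hk2 encodes the inducible hexokinase of tissues with high glucose use (chr6:82725025-82774454, minus strand). Its start-site peak, 148 bp upstream of the start, was the strongest in its window. Control values were 315, 346, 323 and 344, within a narrow range, and paused values were 292, 328, 433 and 373, on both sides of it. The change of 0.09 (95% interval -0.14 to 0.31, adjusted p = 0.641, limma-trend) turned slightly negative under TMM and loess scaling.

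Hk2 alone had calls in both directions inside its own span. Its 27 tested peaks held 3 higher and 2 lower calls, against 11.0% higher and 2.91% lower of all tested peaks. Their median change was -0.01. The best-supported rise lay 1437 bp beyond the far end of the gene, chr6:82723488-82723688, with 142, 149, 142 and 173 in control and 223, 158, 227 and 250 in paused libraries. The second paused library fell among the controls. The change was 0.48 ± 0.13 (SE; adjusted p = 0.00898, limma-trend), and 0.27 after loess (adjusted p = 0.138, limma-trend). The call was also lost with DESeq2 (adjusted p = 0.0722) and without the fourth paused library (adjusted p = 0.0644, limma-trend).

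A fall lay inside Hk2, 18088 bp downstream of the start, at chr6:82756266-82756466. Control libraries gave 24.9, 23.9, 23.7 and 27.9, and paused libraries 21.9, 3.15, 12.4 and 10.5. The groups did not overlap, although the lowest paused value rested on 2 reads. The change was -1.24 ± 0.34 (SE; adjusted p = 0.0118, limma-trend). Without the second paused library, which holds that value, it was -0.77 and not called (adjusted p = 0.0711, limma-trend), and DESeq2 did not call the peak either (adjusted p = 0.0552). Close by, at chr6:82755407-82755607, a peak was called in the opposite direction (40.6 ± 5.52 and 57.7 ± 8.33, adjusted p = 0.0489, limma-trend). That call was lost after TMM scaling and in 6 of the 8 fits that left out 1 library. The remaining calls of Hk2 also lay inside the gene, a fall at chr6:82725517-82725717 (20.02 ± 6.80 and 10.1 ± 5.96, adjusted p = 0.0453, limma-trend) and a rise at chr6:82728869-82729069 (17.2 ± 4.51 and 28.4 ± 4.30, adjusted p = 0.0483, limma-trend). They held in 3 and 2 of the 8 fits that left out 1 library, and neither was called with DESeq2 (adjusted p = 0.0776 and 0.367). The summed value of the window was 1581 ± 74.6 in control and 1724 ± 183 in paused cells, and was not called (adjusted p = 0.0847, limma-trend).

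The phosphofructokinase genes differed in how many peaks they had. Pfkp, the platelet-type isoform (chr13:6579874-6649060, minus strand), had 20 tested peaks, and Pfkl, the liver-type isoform (chr10:77986947-78009807, minus strand), had 14, of which 3 were its own. Windows differ in length and neighbours, so sums are not compared between genes.

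At Pfkp the start-site peak gave 258, 281, 235 and 259 in control and 247, 251, 329 and 292 in paused libraries. The groups overlapped fully at the lower end, and the change of 0.11 (95% interval -0.12 to 0.33, adjusted p = 0.555, limma-trend) was -0.00071 after TMM scaling. The calls were elsewhere, 3 higher and none lower. Upstream by 26294 bp, at chr13:6674965-6675165, control libraries measured 72.2, 57.3, 67.7 and 64.7 and paused libraries 104, 117, 86.9 and 107. All paused values exceeded all control values, and the change of 0.65 ± 0.14 (SE; adjusted p = 0.00169, limma-trend) was called under every alternative.

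Nearer to Pfkp, 15561 bp upstream of its start, a peak went from 44.8 ± 2.98 to 68.3 ± 10.6 (adjusted p = 0.0126, limma-trend). Inside the gene, 6160 bp downstream of the start, a peak went from 119 ± 11.3 to 175 ± 23.1 (adjusted p = 0.00285, limma-trend). Neither pair of groups overlapped, and both calls were lost after loess but not after TMM in limma-trend. The peak upstream of the start also missed the threshold with TMM in edgeR (adjusted p = 0.0506) and with DESeq2 (0.19). The strongest peak of the window lay 36 bp from Pitrm1, a mitochondrial peptidase gene, and was not called (346 ± 28.4 and 381 ± 46.9, adjusted p = 0.421, limma-trend). The summed value rose from 1374 ± 31.6 to 1557 ± 66.7 (adjusted p = 0.00384, limma-trend), a call lost after TMM (adjusted p = 0.631, limma-trend).

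At Pfkl, none of the gene's own 3 tested peaks was called. The peak 18929 bp downstream of its start had all paused values below all control values (22.9 ± 4.26 and 13.1 ± 1.86, adjusted p = 0.061, limma-trend). The other own peaks gave 13.5 ± 9.21 and 9.32 ± 4.60, and 27.9 ± 6.06 and 27.5 ± 4.69. The sum over own peaks alone was 74.3 in control and 55.6 in paused cells, a change of -0.43 (adjusted p = 0.0377, limma-trend). Of all sums over own peaks, 29.8% were called higher and 1.40% lower.

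The whole Pfkl window went the other way, from 727 ± 36.9 to 804 ± 26.7 (change 0.14, adjusted p = 0.0437, limma-trend), a call lost after TMM and in 6 of the 8 fits that left out 1 library. Its 2 higher calls lay in neighbours. At chr10:78055336-78055536, inside Dnmt3l, a cofactor gene of DNA methylation, control values were 68.8, 50.2, 83.0 and 57.3 and paused values 90.0, 103, 77.6 and 128. One paused value fell within the control range, and the change was 0.61 (adjusted p = 0.0083, limma-trend). This call was lost after loess (adjusted p = 0.0857, limma-trend), without the fourth paused library (0.0684, limma-trend) and with DESeq2 (0.0948). The call inside Aire, the thymic autoantigen regulator gene, went from 27.9 ± 4.78 to 43.1 ± 5.50 (adjusted p = 0.0317, limma-trend). It was lost after TMM (adjusted p = 0.0932, limma-trend) and loess (0.0987) and with DESeq2 (0.281). It held in 4 of the 8 fits that left out 1 library.

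Pkm encodes the pyruvate kinase of most tissues and of embryonic cells (chr9:59656576-59679372, plus strand). No peak lay inside the gene. Its start-site peak, 146 bp upstream of the start, gave 288, 406, 330 and 370 in control and 314, 377, 458 and 387 in paused libraries. The ranges overlapped almost fully, with a change of 0.14 (95% interval -0.09 to 0.37, adjusted p = 0.45, limma-trend) that turned negative after loess.

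Just upstream, 3039 bp from the Pkm start at chr9:59653437-59653637, accessibility was lower in paused cells. The control libraries measured 86.8, 92.0, 86.4 and 98.5, and the paused libraries 57.7, 61.5, 51.2 and 38.7. The groups were far apart and the spread was small. The change of -0.81 ± 0.16 (SE; adjusted p = 0.000425, limma-trend) was called under every alternative, and this was the lower call with the smallest adjusted p among the member peaks.

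The other calls of the Pkm window lay inside neighbouring genes. Gramd2, a gene just downstream, held 2 lower calls, from 103 ± 8.13 to 67.0 ± 22.8 and from 93.3 ± 7.64 to 65.8 ± 3.51 (adjusted p = 0.00683 and 0.014, limma-trend). The first was lost without the first paused library, where the change was -0.43 in place of -0.67 (adjusted p = 0.0587, limma-trend), and the second without the first control library (adjusted p = 0.0616, limma-trend). The same gene held 1 higher call at chr9:59707222-59707422, with 72.9, 59.7, 94.8 and 82.3 in control and 106, 107, 124 and 157 in paused libraries. These groups did not overlap, and the change of 0.67 ± 0.15 (SE; adjusted p = 0.00192, limma-trend) was called under every alternative. A lower call inside Parp6 went from 26.7 ± 8.31 to 12.9 ± 6.26 (adjusted p = 0.0182, limma-trend) and held in 5 of the 8 fits that left out 1 library. It was lost with DESeq2 (adjusted p = 0.0813) and with the deposited factors in edgeR (0.051). The window thus held 1 higher and 4 lower calls of 11 tested peaks, against 11.0% higher and 2.91% lower of all tested peaks. Its summed value was 1387 ± 56.5 in control and 1412 ± 98.8 in paused cells (adjusted p = 0.709, limma-trend).

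Ldha encodes the lactate dehydrogenase subunit that favours lactate production (chr7:46842274-46855627, plus strand). Its start-site peak, partly over the promoter with the 3 cores, gave 179, 198, 161 and 182 in control and 181, 180, 216 and 170 in paused libraries. The groups covered the same range, with a change of 0.05 (95% interval -0.19 to 0.28, adjusted p = 0.823, limma-trend) that was negative under TMM and loess scaling.

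Away from the Ldha start shown above, 3 of the gene's own 8 tested peaks were called lower and none higher. Among all tested peaks, 2.91% were called lower and 11.0% higher. At chr7:46857581-46857781, 2054 bp past the gene's end, control libraries read 15.9, 21.5, 18.6 and 22.0 and paused libraries 6.92, 3.15, 7.76 and 5.86. No paused value came near the controls, on as few as 2 reads. The change of -1.61 ± 0.36 (SE; adjusted p = 0.00183, limma-trend) was the largest fall among tested member peaks.

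A stronger peak 300 bp past the end of Ldha, chr7:46855827-46856027, gave 68.5, 69.3, 64.3 and 73.5 in control and 36.9, 45.7, 54.3 and 43.4 in paused cells. The groups were again separate. The change of -0.61 ± 0.16 (SE; adjusted p = 0.00861, limma-trend), like that of the peak 2054 bp past the end, was called under every alternative. The third lower call lay 3293 bp upstream of the start shown above, inside the annotated span and near its upstream end. It went from 21.1 ± 7.51 to 10.2 ± 3.99 with overlapping groups (adjusted p = 0.0392, limma-trend). The call was lost after loess, with DESeq2 (adjusted p = 0.0948) and in 6 of the 8 fits that left out 1 library.

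Ldha was the only member whose window sum was lower in paused cells on the deposited scale, 985 ± 33.5 against 920 ± 58.7, a difference of -6.67% that was not called (change -0.10, adjusted p = 0.131, limma-trend). Over its own peaks the sum was 599 in control and 510 in paused cells, which was called (change -0.24, adjusted p = 0.0164, limma-trend). Of all sums over own peaks, 1.40% were called lower, and these sums were fitted on the deposited scale only. After TMM scaling the window sum was called as well (change -0.25, 95% interval -0.35 to -0.14, adjusted p = 0.00267, limma-trend). The strongest peak of the window lay inside Hps5, a lysosome-related organelle gene, and was not called (196 ± 10.8 and 229 ± 27.3, adjusted p = 0.192, limma-trend).

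**Figure D3:**
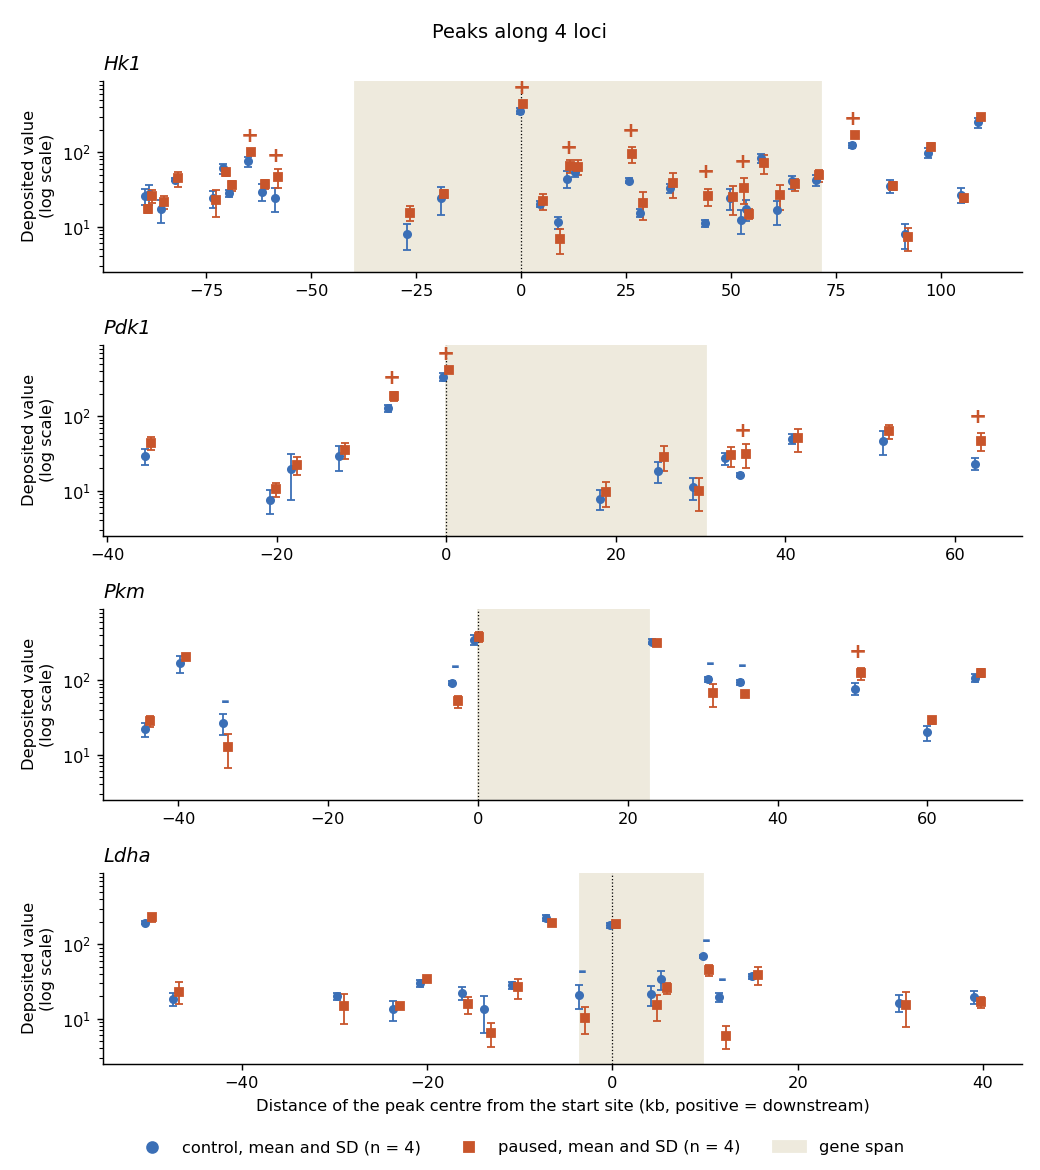
Mean deposited value and SD (n = 4, log axis) of each peak around Hk1, Pdk1, Pkm and Ldha in control (blue circles) and paused (orange squares) cells, against the distance of the peak centre from the start site in kb, with downstream positive and the gene span shaded. Plus signs mark peaks called higher and minus signs peaks called lower: 8 and 0 at Hk1, 4 and 0 at Pdk1, 1 and 4 at Pkm, and 0 and 3 at Ldha. Among all tested peaks, 11.0% were called higher and 2.91% lower.

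Pdk1 encodes a kinase that inhibits pyruvate dehydrogenase (chr2:71873215-71903858, plus strand). Of its 12 tested peaks, 4 were called higher and none lower, against 11.0% higher and 2.91% lower of all tested peaks. All 4 had Pdk1 as their nearest gene. The median change in its window was 0.39. The start-site peak, 7 bp upstream of the start, gave 286, 388, 337 and 347 in control and 453, 410, 383 and 426 in paused libraries. The lowest paused value lay just below the highest control value. The change was 0.31 ± 0.11 (SE; adjusted p = 0.0445, limma-trend), and 0.20 after TMM scaling (adjusted p = 0.224, limma-trend). The call held in 2 of the 8 fits that left out 1 library.

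Upstream of Pdk1 by 6464 bp, chr2:71866660-71866860, control libraries measured 141, 133, 107 and 131 and paused libraries 174, 216, 157 and 200. All paused values were higher, with a change of 0.54 ± 0.13 (SE; adjusted p = 0.00301, limma-trend). The peak was called after TMM but not after loess, and not with DESeq2 (adjusted p = 0.0649). Downstream, 32060 bp past the gene's end at chr2:71935818-71936018, values were 18.7, 20.3, 25.4 and 27.9 in control and 39.2, 63.1, 51.2 and 35.1 in paused cells. These groups were separate too. The change of 0.98 ± 0.21 (SE; adjusted p = 0.00161, limma-trend) was called under every alternative.

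The fourth call at Pdk1, 4361 bp past its end, went from 16.4 ± 1.00 to 31.2 ± 11.0 without overlap (adjusted p = 0.0254, limma-trend). It was lost after TMM in limma-trend (adjusted p = 0.066), with DESeq2 (0.13) and in 3 of the 8 fits that left out 1 library. The call held with TMM in edgeR and after loess (adjusted p = 0.043, limma-trend). The summed value was 722, 801, 713 and 776 in control and 1021, 1030, 870 and 1029 in paused libraries. Every paused sum was above every control sum, and the third paused library was the lowest of its group. The sum was 31.1% higher in paused cells (753 ± 42.5 and 987 ± 78.1, change 0.39, adjusted p = 8.46e-05, limma-trend), and the change after TMM scaling was 0.24 (95% interval 0.11 to 0.37, adjusted p = 0.0148, limma-trend).

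Hif1a (chr12:73901324-73947554, plus strand) had 5 peaks and no call. Its start-site peak, 88 bp upstream of the start, gave 270, 279, 202 and 247 in control and 314, 262, 321 and 294 in paused libraries. The groups overlapped through the second paused library, and the change was 0.26 (95% interval 0.03 to 0.49, adjusted p = 0.116, limma-trend). Past the gene's end, a peak at 42024 bp from the start gave 117 ± 8.71 and 113 ± 9.93, and one at 45419 bp gave 20.2 ± 5.98 and 16.1 ± 5.34. The other 2 peaks were nearer to Snapc1, a gene of small nuclear RNA transcription. One of these was above the controls in every paused library (221 ± 19.5 and 249 ± 7.41) without a call (adjusted p = 0.292, limma-trend). The summed value was 631 ± 26.0 in control and 701 ± 26.5 in paused cells (adjusted p = 0.0433, limma-trend), a call lost after TMM scaling (adjusted p = 0.971, limma-trend) and in 6 of the 8 fits that left out 1 library.

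Window sums were called higher for 6 of the 10 genes, Slc2a3, Hk1, Pfkp, Pfkl, Pdk1 and Hif1a, and lower for none. Over all 20225 genes with a tested sum, 50.0% were called higher and 0.747% lower, so 6 of 10 is near the background. After TMM scaling 5.47% of all sums were called higher and 4.64% lower, and the member calls were Hk1 and Pdk1, both higher, and Ldha, lower. The same 3 genes in the same directions were called with edgeR (background 5.81% higher and 4.83% lower), with DESeq2 (3.83% and 3.25%) and after loess (5.22% and 4.59%). Paused sums lay wholly above control sums at 5 of the 10 genes and at 38.2% of all genes, and wholly below at none and at 0.613% of all. Leaving out 1 library at a time gave 3 to 6 called sums on the deposited scale, with 3 without the first control library and 3 without the fourth paused library. Sums over own peaks only were called higher at Slc2a3, Hk1, Pfkp and Pdk1 (changes 0.14, 0.33, 0.21 and 0.39). They were called lower at Pfkl and Ldha (-0.43 and -0.24). Of all such sums, 29.8% were called higher and 1.40% lower. Own-peak sums were fitted on the deposited scale only, without other scalings or left-out libraries.

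**Figure D4:**
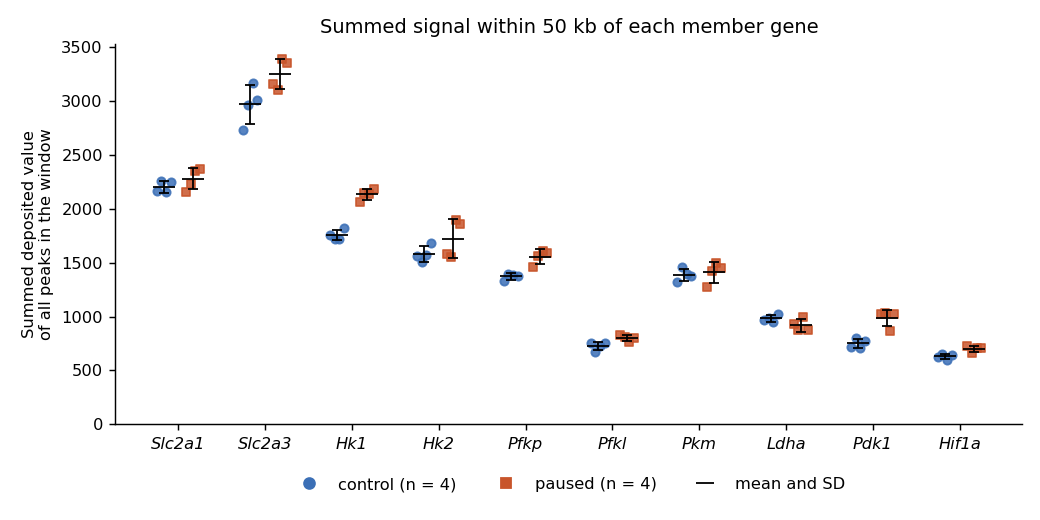
Summed deposited value of all peaks within 50 kb of each gene, in each of 4 control (blue circles) and 4 paused (orange squares) libraries, with group mean and SD. The groups are separate at Hk1, Pfkp, Pfkl, Pdk1 and Hif1a on the deposited scale, and at Ldha the paused mean (920) is below the control mean (985).

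Called changes also varied with the strength of a peak. Over all tested peaks the median change went from -0.22 among the weakest twentieth to 0.20 among the strongest. Of 104 member peaks at or above the median strength of all tested peaks (34.4), 20 were called higher and 4 lower; of all such peaks, 16.9% were called higher and 1.86% lower. Of the 87 weaker member peaks, 4 were called higher and 6 lower, against 5.03% and 3.95% of all weaker peaks. Peak strength thus moved with the direction of the calls, and its part in them was not tested. The loess correction kept 9 of the 24 higher and 8 of the 10 lower calls. It removes the shift common to all peaks together with the trend, so it cannot separate the 2. TMM scaling in limma-trend, which does not remove the trend, kept 13 of the 24 higher and all 10 lower calls.

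**Figure D5:**
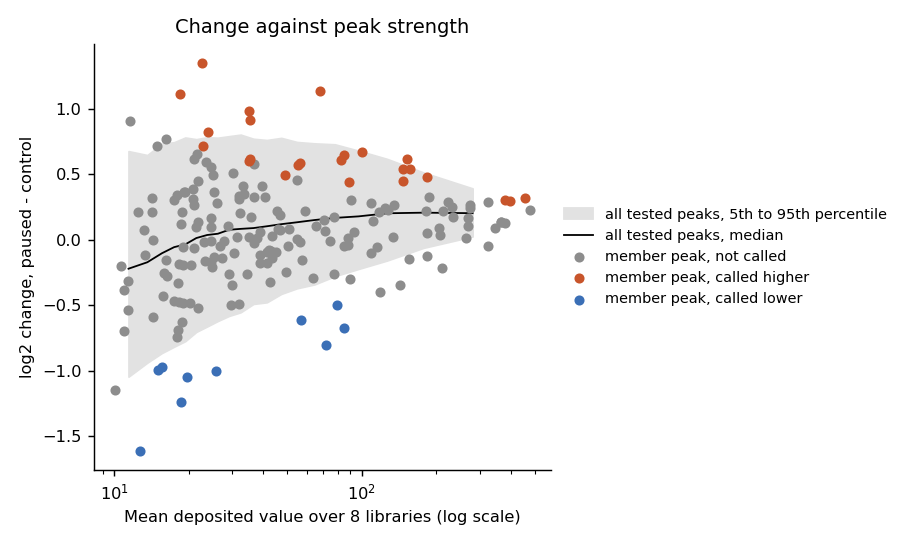
Change (paused minus control, log2(value + 1)) of the tested member peaks against their mean deposited value over 8 libraries (log axis), over the median (line) and 5th to 95th percentiles (grey) of all tested peaks. The median of all peaks climbs from -0.22 to 0.20 with strength; 20 of the 24 higher calls lie at or above a mean of 34.4, and 6 of the 10 lower calls lie below it.

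Groups that did not overlap gave a similar picture. Among the tested member peaks, 21 had all paused values above all control values, which is 11.0% against 13.0% of all tested peaks, and 11 had all paused values below, which is 5.76% against 4.36%. The higher call was accompanied by full separation in 15 of 24 peaks, and the lower call in 7 of 10. At the limit of the 50 kb rule, the last peak included lay 49683 bp from Hk1 and nearer to Supv3l1, with 26.0 ± 6.48 in control and 17.5 ± 2.31 in paused cells. The first one left out lay 50016 bp from Pfkl and nearer to Dnmt3l, with 19.0 ± 2.22 and 26.0 ± 9.72.

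Among 55 further genes of the pathway, 46 had a start-site peak (4 of them read at a gene end), of which 5 were called higher and none lower; over all genes 11.1% were called higher and 0.676% lower, so this share is near the background. None of the 15 start-site peaks of other glycolytic enzymes and transporters was called, and their median change was 0.04, against 0.18 for all start-site peaks. Regulators of glycolysis and pyruvate use had 20 such peaks with 3 higher calls, and partners and regulators of the hypoxia factor had 11 with 2 higher calls. The largest called changes were at Vhl, which marks hypoxia factors for degradation (115 ± 15.7 and 154 ± 12.1, change 0.43, adjusted p = 0.0194, limma-trend), and at G6pdx, the entry enzyme of the pentose phosphate pathway (118 ± 11.4 and 154 ± 21.5, change 0.37, adjusted p = 0.0441, limma-trend). The other calls were Pdk4, a second pyruvate dehydrogenase kinase gene, Dlat, a pyruvate dehydrogenase subunit gene, and Epas1, a paralogue of Hif1a read at a gene end, with changes of 0.35, 0.35 and 0.36. These 3 were named after their values were seen. All 5 calls are on the deposited scale, and whether they hold under other scalings was not tested. After TMM and loess in limma-trend, 2.58% and 1.16% of all start-site peaks were called higher.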

How the data were processed

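Per the submitters' processing notes, reads were handled with FastQC, Trim Galore, Bowtie2 2.4.1, MACS3 3.0.3 and DiffBind 3.16.0 on mm10; settings, and any shift of reads for Tn5, are not given in the sources used here. The authors deposited 1 table with a signal per peak and library, which is a read count divided by 1 factor per library, and with their own log2 fold and p-value with FDR per peak. Whole reads could be recovered for at least 99.8% of values in each library (tolerance 0.0051). Genes and promoters came from RefSeq on GRCm38.p6, the build that mm10 names; a peak lay within 1 kb of 54.2% of start sites, against 17.6% after a shift of 50000 bp.

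The fit was limma-trend (limma 3.58.1, R 4.3.3) on log2(value + 1) over peaks with a mean of at least 10, control against paused with no covariate, and the same on summed values per gene. Replicates of a group differed beyond counting error, with a chi-square per degree of freedom of at least 1.09. Alternatives were edgeR 4.0.16 on recovered reads, which called 9084 peaks higher and 7058 lower, DESeq2 1.42.0, TMM and loess (span 0.3) scaling in limma, a pseudocount of 0.1, no filter, a mean of at least 50, a replicate block, and each library left out. Statistics were checked on simulated data. These had no shift common to all peaks and no trend with peak strength, so the check does not cover the choice of scaling. Reads in peaks set the precision: 3 reads equal 1.04 in the deepest library, the first control, and 5.08 in the shallowest, the third control; these floors cover counting error only, while the 95% intervals come from the fit and carry the spread between libraries. For each gene the text names the start-site peak, the strongest peak and the called peak with the smallest adjusted p in each direction; called peaks outside that rule were named after their values were seen. The members and lists were chosen with earlier results of these data known. Exon and intron positions were not analysed here.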

Additional observations from a re-analysis of the deposited data

Results flagged for a closer look

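Among 70 groups of 4 values examined (both groups of the named peaks and of the window sums), 3 had a value standing apart from the other three of its group by Dixon's criterion, of which chance gives about 1 in 20. At the peak beside the lower-coordinate end of Slc2a3, the first control library read 78.5, while the other control libraries lay between 89.6 and 91.1. At the peak inside Slc2a3 that was higher in paused cells, the third paused library read 216, above the 171 to 177 of the others. For the summed signal of Pdk1, the third paused library gave 870, below the 1021 to 1030 of the other paused libraries and above the highest control sum of 801. Their causes were not tested.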

How the results depend on the processing

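Higher calls among the member peaks fell from 24 to 13 with TMM in edgeR and in limma-trend, to 10 after loess, to 7 with DESeq2 and to 15 with a mean of at least 50, and ranged from 12 to 26 when 1 library was left out (12 without the fourth paused, 15 without the third control library). Lower calls went from 10 to 6 with DESeq2 and to 5 with a mean of at least 50, and ranged from 7 to 12 without 1 library. Called sums went from 6 to 3 with TMM in edgeR and in limma-trend, with DESeq2 and after loess, and ranged from 3 to 6 without 1 library. With the deposited factors edgeR called 23 higher and 11 lower peaks and 6 sums. Fewer peaks are tested at the higher mean. On the deposited scale the median change was 0.10 over all tested peaks and 0.15 over all gene sums. With edgeR with TMM, DESeq2, limma-trend with TMM and loess, in that order, the peak median was -0.0077, -0.0057, -0.0053 and -0.011. The median of the sums was -0.0012, -0.0028, -0.00069 and -0.0014. These scalings thus lowered the changes of peaks and sums as a whole, and not only those of the member genes. The part of this common shift in the lost calls and reversed signs was not tested, nor was the cause for the remaining settings. Several changes reversed. In the order edgeR with TMM, DESeq2, limma-trend with TMM and loess they were -0.041, -0.057, -0.098 and -0.18 at the Slc2a3 gene-end peak, -0.0081, -0.0089, -0.021 and -0.12 at the Hk2 start, -0.00056, -0.00036, -0.00071 and -0.10 at the Pfkp start, and -0.068, -0.067, -0.060 and -0.16 at the Ldha start. The sums gave -0.10, -0.10, -0.10 and -0.086 for Slc2a1, -0.0071, -0.0095, -0.014 and -0.00065 for Slc2a3, -0.023, -0.024, -0.026 and -0.013 for Hk2, -0.0080, -0.0077, -0.0013 and -0.0096 for Pfkl, and -0.12, -0.12, -0.12 and -0.11 for Pkm. Loess alone gave -0.082 at the strongest Slc2a1 peak, -0.074 at the strongest Pfkp peak, -0.071 at the Pkm start and -0.0090 for the Hif1a sum. With own peaks only, the sums were -0.43 for Pfkl, itself called (adjusted p = 0.0377, limma-trend), and -0.012 for Pkm. Without 1 library, changes ranged from -0.10 to 0.17 at the Slc2a3 gene-end peak, -0.011 to 0.18 at the Hk2 start, -0.023 to 0.095 at the Ldha start, and -0.0055 to 0.074 for the Pkm sum. To look for pairing, the group mean of each peak was subtracted, and the remainders were correlated between control and paused libraries. Remainders of same-numbered libraries correlated at 0.08, 0.04, 0.13 and 0.04, and those of different numbers at -0.10 to 0.07. These are not correlations of the signals themselves. Whether the numbers mark a weak pairing was not tested. A replicate block gave 29 higher and 12 lower calls. Weak peaks rest on few reads in the shallow libraries, down to 2.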
